A study of Mus musculus with 6 samples.

Results

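Mitochondria carry their own ribosome, the mitoribosome, which translates the few messenger RNAs transcribed from mitochondrial DNA, all of them for membrane subunits of the respiratory chain and ATP synthase. Every protein of the mitoribosome is encoded in the nucleus, made in the cytosol and imported, so its genes are transcribed far from the RNA that the ribosome reads. T cells build new mitochondria after activation, and mitochondrial translation is known to sustain the killing function of CD8 T cells.

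The genes described here are those whose mouse symbol starts with Mrpl (mitochondrial ribosomal protein, large) or Mrps (small) followed by a number, without pseudogenes, and that reached at least 1 CPM in 3 or more libraries. CPM is a gene's share of the reads of its library, scaled to a fixed total. The rule found 78 genes among 25655 identifiers in the tables. All 78 candidates passed the filter, with at least 1 CPM in each of the 6 libraries, so no gene entered through its level in a single genotype. The symbol does not always match the place of the protein. Mrps30 and Mrps18a encode proteins that sit in the large subunit, and Mrps36 encodes a protein now assigned to the 2-oxoglutarate dehydrogenase complex. Counted by place, 51 genes encoded large-subunit proteins, 26 small-subunit proteins, and Mrps36 neither.

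The libraries came from CD8 T cells taken from the spleen of C57BL/6 females, either WT or Utx knockout (Utx KO), with 3 biological replicates of each genotype. Utx is the histone H3K27 demethylase encoded by Kdm6a; the sources used here give no allele, Cre driver or age. Naive cells of both genotypes (CD44 low, CD62L high) were activated on plate-bound antibodies against TCR-β (3 μg/ml) and CD28 (1 μg/ml) with 10 ng/ml IL-2 for 2 days. After 3 more days in IL-2 alone they were taken at day 5, and RNA was read by 3' sequencing. The comparison asks how RNA levels of knockout cells differ from those of WT cells at that time. Whether the replicates were separate animals is not stated, and the p-values reflect only how these 6 samples vary.

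Library totals ran from 1619085 to 2529113 reads. Kdm6a measured 44.3, 49.3 and 53.6 CPM in WT libraries and still 27.8, 39.4 and 31.5 CPM in those labelled Utx KO, without overlap. The log2 fold change of Kdm6a (Utx KO minus WT) was −0.57 with SE 0.15 (limma, adjusted p = 0.0123, and 0.0056 to 0.0708 over 17 alternative settings). The call was lost with DESeq2 (0.0673), and in fits that dropped replicate 2 (0.0528) or 3 (0.0708) of WT, or replicate 1 of Utx KO (0.0554). A 3' tag outside the deleted part would check nothing. CD8 T-cell markers (6 genes, 4 of them called) summed to 1807 to 1922 CPM in WT and 2037 to 2086 CPM in Utx KO. Summed markers of other cells gave, for WT and then Utx KO, 7.37 to 10.4 CPM and 6.79 to 7.996 CPM for CD4 T cells (Cd4 at 0 in all libraries), 3.23 to 7.66 CPM and 2.86 to 8.03 CPM for B cells (Cd79a, Ms4a1 and Ighm at 0), and 0.395 to 1.09 CPM and 0 to 1.85 CPM for natural killer cells (3 of 4 genes at 0). They gave 6.72 to 8.29 CPM and 7.55 to 12.4 CPM for myeloid cells (5 of 7 at 0) and 0 to 0.461 CPM and 0.571 to 1.19 CPM for red cells and platelets (3 of 5 at 0). The part of any of these cells in the results was not tested.

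RNA for the mitoribosome was present at moderate and similar levels in both genotypes. Of the 78 genes, 1 rose in Utx KO cells (Mrps5) and 2 fell (Mrpl33 and Mrpl27), by limma, a linear model that shares its estimate of spread across genes, at an adjusted p under 0.05 over all 10590 tested genes. Among all tested genes 10.8% passed that threshold, 5.28% upward and 5.51% downward, against 3.85% of the mitoribosomal genes. Among the 5700 tested genes whose mean level lay within the range of the mitoribosomal genes, 10.5% passed. Without adjustment, 9 of the 78 had a p under 0.05, where 22.7% of all tested genes did. The median log2 fold change of the 78 genes was 0.057, and that of all tested genes was 0.0067. The median size of the change regardless of sign was 0.10, against 0.19 over all tested genes and 0.15 over the 5700 tested genes in the same range of levels.

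**Figure D1:**
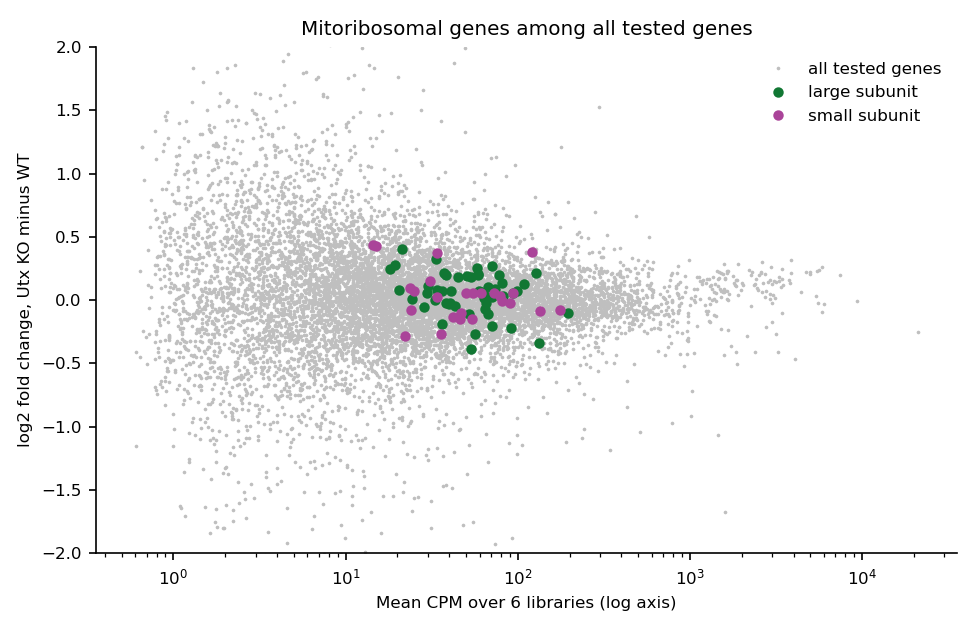
Change between genotypes (log2 fold change of CPM + 1, Utx KO minus WT, y axis) against mean CPM over 6 libraries (x axis, log scale) for all tested genes in grey, large-subunit genes in green and small-subunit genes in purple. The mitoribosomal genes lie between −0.38 and 0.44 on the y axis, and 62 other genes lie beyond the limits of the axis at −2 and 2.

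Most differences were small and could be bounded. In all 78 genes the ratio of the group means was below 1.5-fold in either direction, and 49 genes had a Utx KO mean within 10% of the WT mean. The 95% interval of the log2 fold change spanned 0 for 69 genes. It excluded a 2-fold change in either direction for 78 of 78 genes and a 1.5-fold change for 68 of 78. The widest limits were −0.73, for Mrps10, and 0.93, for Mrps27, both at low levels. These intervals are for each gene alone and are not adjusted for the number of genes.

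**Figure D2:**
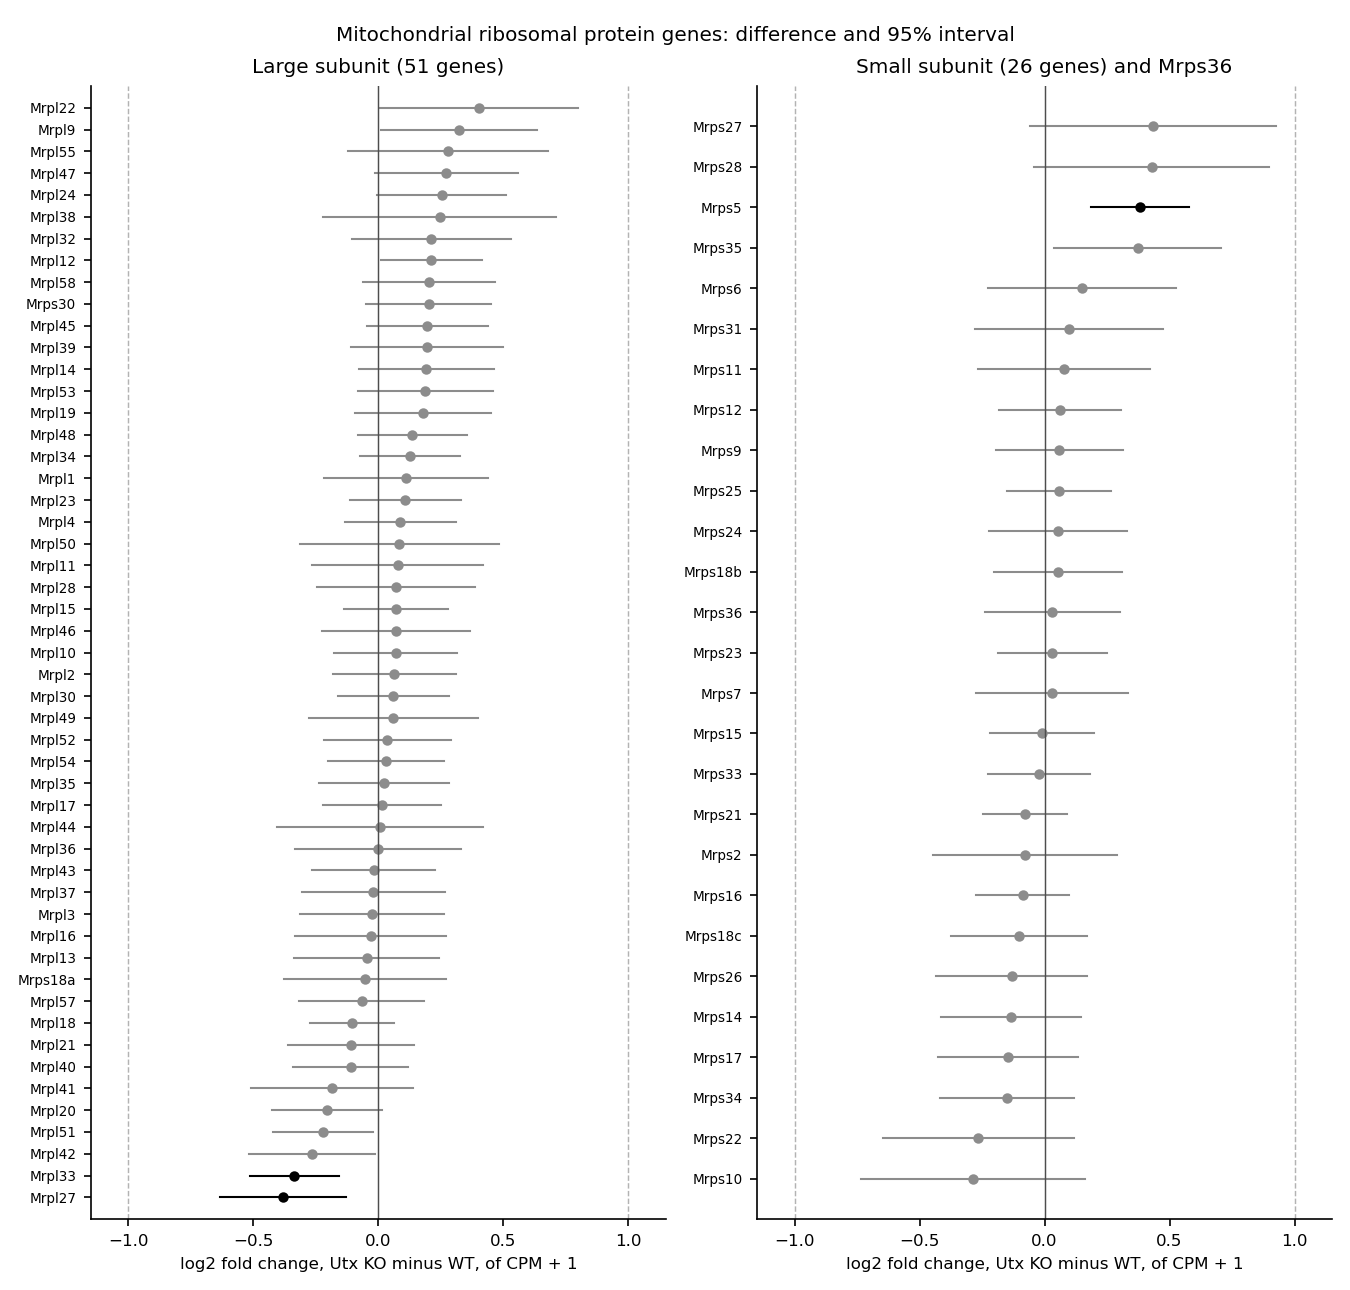
Log2 fold change of CPM + 1 (Utx KO minus WT, x axis) with its 95% interval from the limma fit for each of the 78 genes, by subunit; black marks an adjusted p under 0.05. Each interval lies inside the dashed lines for a 2-fold change, and the black points are Mrps5, Mrpl33 and Mrpl27.

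Summed over genes, the large subunit reached 2977, 3084 and 2895 CPM in the WT libraries and 3235, 3011 and 2914 CPM in the knockout libraries, replicates 1 to 3 in order. The small subunit reached 1501, 1531 and 1456 CPM (WT) and 1600, 1523 and 1430 CPM (Utx KO). In both sums the groups overlapped, with Utx KO replicate 1 highest of all 6 libraries. The ratio of the large to the small subunit sum was 1.98, 2.01 and 1.99 in WT and 2.02, 1.98 and 2.04 in Utx KO, again with overlapping groups. The sign of the small shift over all 78 genes rested on Utx KO replicate 1. With it, 49 of 78 genes had a higher fitted level in Utx KO (5401 of 10590 tested genes did). Without it, 38 of 78 did and the median log2 fold change was −0.0079.

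In the large subunit 0 genes rose and 2 of 51 fell by limma, with a median log2 fold change of 0.069. In the small subunit 1 of 26 rose and 0 fell, with a median of 0.030. Of all tested genes 5.28% rose and 5.51% fell. In the common naming of ribosomal proteins, 46 genes encode proteins named as shared with bacteria and 31 encode proteins named as specific to mitochondria. Mrps18a and Mrps18b, relatives of bacterial S18, are named and counted as specific. The shared proteins held all 3 called genes (3 of 46, where 10.8% of all tested genes passed) and had a median log2 fold change of 0.060. The specific proteins held 0 called genes by limma (3 at an unadjusted p under 0.05, 0 with edgeR, DESeq2 or limma-voom) and a median of 0.036. The difference between these classes was not tested.

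Promoter sequence is shown first for the 3 called genes and then for the 2 mitoribosomal genes with the full motif of nuclear respiratory factor 1 close to the start, so that their letters can be set beside the values. Each window runs from 100 bases before to 20 after the RefSeq start in GRCm38.p6, 5′ to 3′. Capitals mark motifs searched on both strands. The first is the 10-base palindrome of nuclear respiratory factor 1 (the last 10 capitals of Mrpl9). Its half-site TGCGCA is not contained in the palindrome but can overlap it. The rest are CCGGAAG (ETS factors, among them GABP), AAGATGGC (YY1) and CACGTG (Myc). The windows are chr2:127587326-127587445 (plus strand) for Mrps5, chr5:31613851-31613970 (plus strand) for Mrpl33, chr11:94653691-94653810 (plus strand) for Mrpl27, chr3:94443236-94443355 (plus strand) for Mrpl9 and chr13:14613018-14613137 (minus strand) for Mrpl32.
Mrps5: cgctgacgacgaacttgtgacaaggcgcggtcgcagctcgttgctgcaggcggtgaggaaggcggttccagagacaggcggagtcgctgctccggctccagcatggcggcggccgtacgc
Mrpl33: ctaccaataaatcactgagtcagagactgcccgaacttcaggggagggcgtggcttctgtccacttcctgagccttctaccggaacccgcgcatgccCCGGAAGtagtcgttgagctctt
Mrpl27: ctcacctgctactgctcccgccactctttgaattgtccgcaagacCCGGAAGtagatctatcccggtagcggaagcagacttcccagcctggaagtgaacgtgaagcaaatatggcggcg
Mrpl9: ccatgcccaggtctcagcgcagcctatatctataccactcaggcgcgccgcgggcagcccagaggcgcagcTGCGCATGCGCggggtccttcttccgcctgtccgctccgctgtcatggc
Mrpl32: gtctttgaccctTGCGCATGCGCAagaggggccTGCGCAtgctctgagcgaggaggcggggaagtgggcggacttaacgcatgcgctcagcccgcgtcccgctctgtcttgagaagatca
Mrpl33 and Mrpl27, which fell, both carry CCGGAAG, starting at −3 and −55 from the start. So do Mrps27 and Mrpl22, whose log2 fold changes of 0.44 and 0.40 were among the highest and did not pass. None of the 5 motifs is in the 300 bases searched for Mrps5, which rose. Mrpl9 was at 32.03, 29.95 and 27.4 CPM (WT) and 33.4, 41.1 and 38.3 CPM (Utx KO) (limma adjusted p = 0.199), and Mrpl32 at 34.8, 30.4 and 38.3 CPM for WT and 43.7, 44.6 and 32.7 CPM for Utx KO (limma adjusted p = 0.46).

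Promoters from 250 bases before to 50 after the start were found for 69 of the 78 genes. CCGGAAG was in those of 26 genes (37.7%), against 22.6% of 8425 tested genes and 9.93% of all 27025 genes in the table. AAGATGGC was in 12 (17.4%, against 5.88% of tested and 3.19% of all genes), and TGCGCA in 21 (30.4%, against 17.3% and 8.79%). The full motif of nuclear respiratory factor 1 was in 3 (4.35%, against 2.62% and 1.07%), and CACGTG in 5 (7.25%, against 12.2% and 8.09%). These are matches of letters, not sites of binding. Of the 26 genes with CCGGAAG, 11 had a higher and 15 a lower fitted level in Utx KO, and of the 43 without it 31 and 12, a split looked at after the values were seen and not tested. The median GC content was 58.7% in the promoters of mitoribosomal genes and 61% in those of tested genes.

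Mrps5 encodes the mitochondrial uS5 protein, which lies where messenger RNA enters the small subunit, and its gene is known from work on lifespan differences among mouse strains. The gene (ENSMUSG00000027374, chromosome 2, 127587222 to 127606829, plus strand in GRCm38) was at 103, 108 and 103 CPM in the WT group, compared with 142, 151 and 119 CPM in the knockout group. Each Utx KO library lay above each WT library, and the Utx KO libraries were farther apart. The log2 fold change of Mrps5 was 0.38 (SE 0.095, 95% interval 0.19 to 0.58, limma adjusted p = 0.00889). It passed in 16 of 17 alternatives and failed without Utx KO replicate 2 (0.31, adjusted p = 0.0776; lowest over the alternatives 0.00156).

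Mrpl33 encodes the bL33 protein, a small conserved component of the large subunit. The gene (ENSMUSG00000106918, chromosome 5, 31596935 to 31664384, plus strand) shares exon sequence on the same strand with the gene model Gm43809, although none of the 50-nt pieces of its last 300 nt occurs in another gene. It was at 145, 156 and 143 CPM across WT libraries, against 126, 110 and 115 CPM across Utx KO libraries. The groups did not overlap, and the log2 fold change of Mrpl33 was −0.34 (SE 0.086, 95% interval −0.51 to −0.16, limma adjusted p = 0.0108). The call was lost with DESeq2 (adjusted p = 0.0596), without WT replicate 2 (0.0798) and without Utx KO replicate 2 (0.0622), and the lowest value over the alternatives was 0.00451.

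Mrpl27 encodes bL27, which reaches toward the centre of the large subunit where peptide bonds form. The gene (ENSMUSG00000024414, chromosome 11, 94653767 to 94660089, plus strand) overlaps exons of Eme1 on the opposite strand. Reads from that overlap cannot be told apart, as the strand setting is unknown. Mrpl27 was at 57.3, 60.4 and 64.01 CPM (WT) and 44.9, 42.8 and 51.3 CPM (Utx KO). The groups did not overlap, and the log2 fold change of Mrpl27 was −0.38 (SE 0.12, 95% interval −0.64 to −0.13). Its limma adjusted p of 0.0461 was near the threshold, and it passed in 9 of 17 alternatives. The adjusted p ran from 0.0303 to 0.226. Among the 8 settings in which it failed were a pseudocount of 0.1 (0.0514), DESeq2 (0.226) and the fits without WT replicate 1 (0.0795), 2 (0.126) or 3 (0.16) or Utx KO replicate 1 (0.0926) or 2 (0.154).

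**Figure D3:**
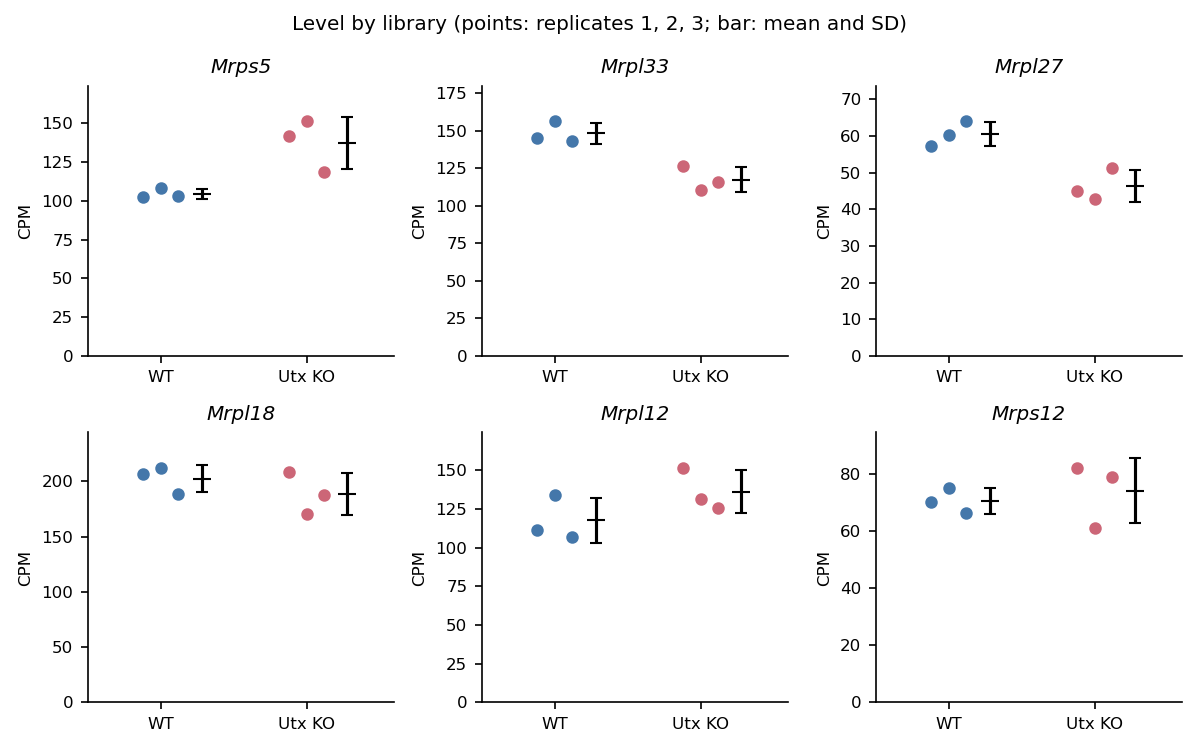
CPM (y axis, from 0) in each library for the 3 called genes (Mrps5, Mrpl33, Mrpl27) and for Mrpl18, Mrpl12 and Mrps12; points are replicates 1, 2 and 3, and bars give their mean and SD. Groups do not overlap in the upper row and overlap in the lower row.

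The other 75 genes did not pass the test, and 7 of them had groups that did not overlap. With the 3 called genes this makes 10 of 78 (12.8%), against 26.5% of all tested genes. Higher in Utx KO without overlap were 6 genes (Mrps5, Mrpl19, Mrpl24, Mrpl9, Mrpl22 and Mrps35), where 14.0% of all tested genes were. Lower without overlap were 4 genes (Mrpl27, Mrpl33, Mrpl51 and Mrpl20), where 12.6% of all tested genes were.

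The 2 largest fitted differences were in the genes with the lowest levels. Mrps27, one of the RNA-binding pentatricopeptide repeat proteins, was at 8.70, 14.7 and 13.1 CPM for WT and 13.9, 19.99 and 16.1 CPM for Utx KO (log2 fold change 0.44, 95% interval −0.057 to 0.93). Mrps28, a small-subunit protein, was at 16.6, 11.5 and 10.4 CPM in the WT group, compared with 19.5, 14.9 and 17.9 CPM in the knockout group (0.43, interval −0.041 to 0.90). Both had overlapping groups. Mrpl22, at the exit of the peptide tunnel, was at 15.03, 22.1 and 17.5 CPM across WT libraries, against 24.2, 22.3 and 25.9 CPM across Utx KO libraries (0.40, interval 0.0056 to 0.80), with 33.5% of the pieces of its 3' end also found in Gm6997. Mrps35 was at 32.4, 33.2 and 22.98 CPM (WT) and 40.9, 38.8 and 34.6 CPM (Utx KO) (0.37, interval 0.038 to 0.71). In these 4 genes the limma adjusted p ran from 0.167 to 0.294.

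At the other end, Mrps10 was at 21.7, 30.9 and 20.2 CPM for WT and 24.6, 21.7 and 13.6 CPM for Utx KO (log2 fold change −0.29), with overlapping groups. Mrpl42 was at 65.2, 63.1 and 56.4 CPM in the WT group, compared with 57.2, 47.98 and 48.2 CPM in the knockout group (−0.27, limma adjusted p = 0.191), and Mrpl51 at 93.7, 106 and 95.7 CPM across WT libraries, against 85, 79.96 and 87.7 CPM across Utx KO libraries (−0.22, limma adjusted p = 0.169). Mrps22, mutated in a human disorder of oxidative phosphorylation, was at 35.98, 35.9 and 44.3 CPM (WT) and 46.9, 27.99 and 24.7 CPM (Utx KO). Here Utx KO replicate 1 was above all WT libraries and the other two below them. The log2 fold change of Mrps22 was −0.27 (limma adjusted p = 0.437) and became −0.54 without Utx KO replicate 1 (adjusted p = 0.0453, the lowest over the alternatives, with 0.856 the highest). Mrpl47, at the tunnel exit, likewise passed only without Utx KO replicate 3 (0.47, adjusted p = 0.0154). With all libraries it had a log2 fold change of 0.27 (limma adjusted p = 0.251, at most 0.681 over the alternatives).

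By place in the ribosome, the stalk that recruits elongation factors (Mrpl10, Mrpl11, Mrpl12, Mrpl53) had log2 fold changes from 0.069 to 0.21. None of these 4 passed by limma (1 at an unadjusted p under 0.05, 0 with edgeR, DESeq2 or limma-voom). The signs of Mrpl10 and Mrpl11 changed when single libraries were left out. Mrpl12, whose protein also binds the mitochondrial RNA polymerase, was at 112, 134 and 107 CPM for WT and 152, 131 and 125 CPM for Utx KO (0.21, interval 0.010 to 0.41, limma adjusted p = 0.194). Mrpl53 shares 100% of the pieces of its 3' end with the gene model Gm42688. The tunnel exit (Mrpl17, Mrpl22, Mrpl23, Mrpl24, Mrpl45, Mrpl47) had log2 fold changes from 0.016 to 0.40 and a median of 0.22. None of these 6 passed by limma (1 at an unadjusted p under 0.05, 0 with edgeR, DESeq2 or limma-voom). Mrpl23 shares 99.2% of the pieces of its 3' end with the pseudogene Mrpl23-ps1. Mrpl45, which ties the ribosome to the inner membrane, was at 62.9, 82.9 and 71.7 CPM in the WT group, compared with 92.5, 73.1 and 83.4 CPM in the knockout group. Of the 7 genes of the central protuberance, 1 passed (Mrpl27) and the median was 0.070.

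Some genes with a known role had small fitted differences, with intervals that do not exclude a change in either direction. Mrps12, at the decoding centre, was at 70.4, 75.1 and 66.2 CPM across WT libraries, against 82.2, 61.1 and 79.1 CPM across Utx KO libraries (log2 fold change 0.060, interval −0.18 to 0.30). Mrpl44, which has an RNase III-like fold, was at 26.9, 25.8 and 19.1 CPM (WT) and 31.4, 18.3 and 23.5 CPM (Utx KO) (0.0067, interval −0.41 to 0.42), and the sign of its fitted value changed with the scaling. The exons of Mrpl44 overlap those of Wdfy1 on the opposite strand. Wdfy1 rose, at 1.98, 2.76 and 0.547 CPM for WT and 9.93, 11.99 and 13.6 CPM for Utx KO (2.30, limma adjusted p = 7.13e-05). The WT values of Wdfy1 are near the level of 3 reads, 1.19 to 1.64 CPM in the WT libraries, so the size of its change is uncertain. How strand was treated in the counting has no statement in the sources used here, so reads of such a pair cannot be told apart.

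Mrps34, altered in an inherited mitochondrial encephalopathy, was at 57.1 ± 2.79 CPM for WT and 51.9 ± 9.06 CPM for Utx KO (SD, n = 3; log2 fold change −0.15). Mrpl58, a peptidyl-tRNA hydrolase that frees stalled mitoribosomes, was at 54.3 ± 1.61 CPM for WT and 63.3 ± 10.9 CPM for Utx KO (0.20). The 3 relatives of bacterial S18 take different places in the ribosome, and their log2 fold changes were −0.054 for Mrps18a, 0.053 for Mrps18b and −0.10 for Mrps18c. Mrps30 was at 54.2 ± 1.88 CPM for WT and 62.7 ± 7.93 CPM for Utx KO (0.20). Mrps24 had a log2 fold change of 0.055 and Mrps36 of 0.032. The adjusted p from limma ran from 0.348 to 0.933 over these 8 genes.

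Mean levels spanned 13.6-fold, from 14.4 CPM (Mrps27) to 196 CPM (Mrpl18), although most of the proteins are present in a single copy per ribosome. A 3' library reads each transcript at its end, so these CPM values are not divided by length. Below Mrpl18, whose RNA also gives a cytosolic protein under stress, came Mrps21, Mrps16, Mrpl33 and Mrpl12, and the lowest after Mrps27 were Mrps28, Mrpl38, Mrpl55 and Mrpl50. Mrpl18 was at 206, 212 and 189 CPM in the WT group, compared with 208, 170 and 188 CPM in the knockout group, and Mrps21 at 182, 188 and 169 CPM across WT libraries, against 188, 166 and 159 CPM across Utx KO libraries. The ranges of Mrpl18 and Mrps21 overlapped. The median coefficient of variation between replicates over the 78 genes was 8.79% in WT and 11.7% in Utx KO. Read numbers alone would give 9.34% and 10.2%. A median of values from 3 libraries each tends to lie below the true spread, so the spread beyond counting cannot be read from these values. They are for single genes and do not show a shift shared by many genes, as in the sums of Utx KO replicate 1. A gene had 19 to 524 reads in a library.

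The genes are scattered over 17 chromosomes. Counted were protein-coding neighbours that start within 1000 bases upstream and run in the other direction, found for 19 of the genes. Pairs whose starts lie well inside each other, such as Mrpl46 and Mrps11, were left out, as were neighbours without values. Of the 19 neighbours counted, 17 were tested and 2 passed (11.8%, near the 10.8% of all tested genes), both named after their values were seen. Apba3, 26 bases from Mrpl54, rose, at 24.9, 20.7 and 24.6 CPM (WT) and 35.4, 38.8 and 36.4 CPM (Utx KO) (log2 fold change 0.64, limma adjusted p = 0.00866). Mrpl54 itself was at 78.7, 84.8 and 78.8 CPM for WT and 92.1, 68.5 and 88.9 CPM for Utx KO (0.032, limma adjusted p = 0.918). Fau, a gene of a cytosolic ribosomal protein 59 bases from Mrpl49, rose by 0.17 on the log2 scale (limma adjusted p = 0.00257), with Mrpl49 at 0.060 (adjusted p = 0.887). The differences within these pairs were not tested.

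None of the tested nuclear genes that work with the mitoribosome passed by limma, although single fitted values reached −0.83 (Mtrf1, a release factor) and 0.69 (Mtg1, an assembly GTPase), with limma adjusted p of 0.299 and 0.119. Its proteins with other symbols gave 0 of 5 called by limma, with a median log2 fold change of 0.076. Dap3, a GTP-binding protein of the small subunit, was at 70.4, 76.03 and 81.5 CPM in the WT group, compared with 104, 83.96 and 84 CPM in the knockout group (0.25, limma adjusted p = 0.172). Of 31 assembly and rRNA modification factors 0 passed (median 0.067), as did 0 of 16 translation factors (0.027) and 0 of 20 aminoacyl-tRNA synthetases (0.027). The same held for 15 factors of mitochondrial DNA maintenance and transcription (−0.025) and 14 regulators of mitochondrial biogenesis (−0.16). The median size of the change regardless of sign was 0.19 for the assembly factors and 0.22 for the regulators. At an unadjusted p under 0.05 there were 1, 3, 2, 1, 0 and 2 genes in these 6 lists, in the order given. Among all tested genes 10.8% passed with adjustment and 22.7% without. Median levels were 12.4 CPM for the assembly factors, 9.52 CPM for the synthetases and 8.33 CPM for DNA maintenance and transcription. Many intervals in these 3 lists are therefore wide, and differences inside them are not excluded. With edgeR 1 translation factor passed, higher in Utx KO, and with DESeq2 or limma-voom 0 genes of the 6 lists did. With a filter of 5 CPM 1 assembly factor passed. Without Utx KO replicate 1, 1 assembly factor passed as higher and 1 translation factor as lower, and without Utx KO replicate 3, 1 assembly factor passed in each direction.

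Close to the threshold were Grsf1, an RNA-binding protein of mitochondrial RNA granules, and the ribosome recycling factor Mrrf, both picked out after their values were seen. Grsf1 was at 55.8, 58.98 and 49.8 CPM across WT libraries, against 65.5, 71.4 and 72.9 CPM across Utx KO libraries (log2 fold change 0.35, limma adjusted p = 0.0533, 0.0461 to 0.304 over the alternatives). Mrrf was at 13.8, 17.05 and 18.1 CPM (WT) and 23.4, 23.4 and 25.9 CPM (Utx KO) (0.55, limma adjusted p = 0.0658, 0.0476 to 0.314). Both had groups that did not overlap. Of the regulators, Myc was at 54.6, 60.8 and 47.1 CPM for WT and 89.8, 58.3 and 51.9 CPM for Utx KO, high in Utx KO replicate 1, the library with the highest mitoribosomal sums. Whether Myc has a part in those sums was not tested. Of the 14 regulators, 11 had a lower fitted level in Utx KO, where 5189 of all 10590 tested genes did. Tfam is counted both here and among the factors of mitochondrial DNA maintenance and transcription. Gabpb2, a subunit of the ETS factor GABP, was at 86.99, 104 and 83.2 CPM in the WT group, compared with 77.1, 74.3 and 69.8 CPM in the knockout group (−0.30, limma adjusted p = 0.0766), and Max, the partner of Myc, at 126, 126 and 127 CPM across WT libraries, against 115, 113 and 103 CPM across Utx KO libraries (−0.20, limma adjusted p = 0.16). Neither had overlapping groups, and both were picked out after their values were seen. Nrf1, the gene of nuclear respiratory factor 1, had a log2 fold change of −0.049, Gabpa −0.084 and Yy1 0.064.

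**Figure D4:**
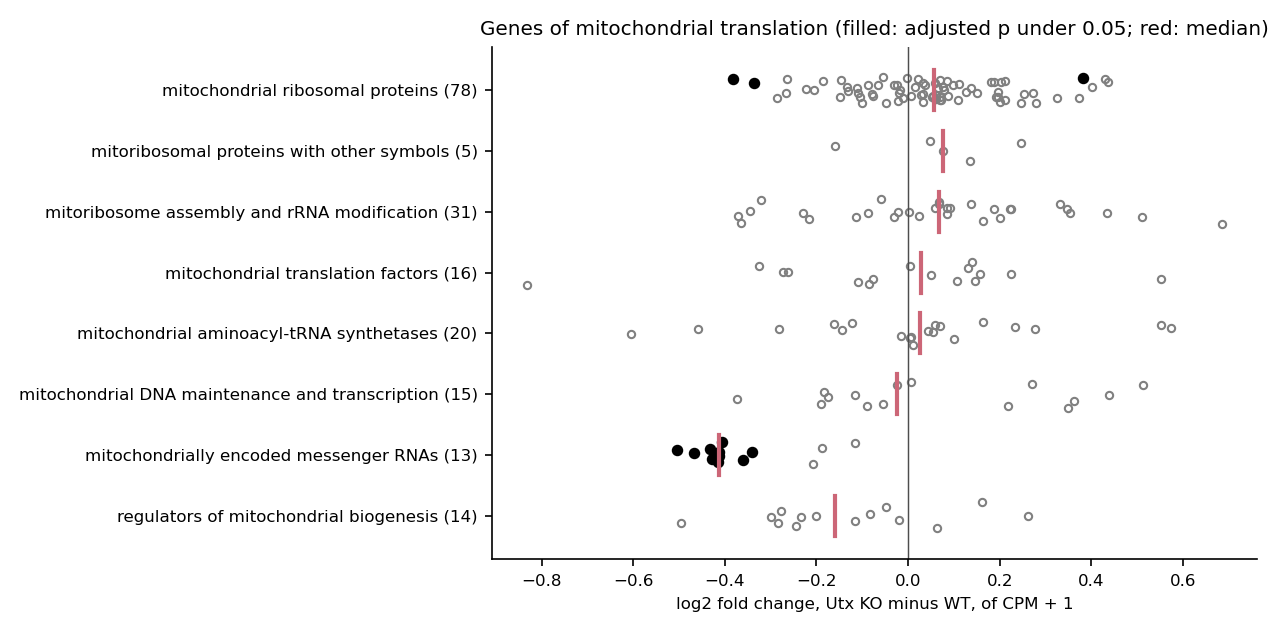
Log2 fold change of CPM + 1 (Utx KO minus WT) for each tested gene of the mitoribosome and of 7 related lists, with filled points for an adjusted p under 0.05, open points for the rest and a red bar at each median. The list of 13 mitochondrially encoded messenger RNAs holds 10 filled points, all below 0.

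The messenger RNAs that the mitoribosome translates did change. Of the 13 encoded in mitochondrial DNA, 10 fell in Utx KO and 0 rose by limma, with a median log2 fold change of −0.41. Among all tested genes 5.51% fell and 5.28% rose. The median level of the 13 was 1573 CPM, against 53.5 CPM for the mitoribosomal genes, so a change of the same size passes more easily here. The summed level of the 13 was 25061, 22390 and 20710 CPM in the WT libraries and 15327, 17621 and 18268 CPM in the knockout libraries. Each Utx KO library was below each WT library, and the mean sum in Utx KO was 0.751 of that in WT. This sum was lowest in Utx KO replicate 1, where the nuclear mitoribosomal sums were highest. Fewer cells rich in these transcripts and fewer transcripts per cell cannot be told apart in bulk RNA.

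mt-Atp6, a subunit of ATP synthase, was at 2396, 2182 and 2063 CPM (WT) and 1474, 1609 and 1590 CPM (Utx KO) (log2 fold change −0.51, SE 0.048, limma adjusted p = 5.33e-08, at most 1.55e-06 over the alternatives). mt-Co3, a subunit of cytochrome c oxidase, was at 2095, 1939 and 1774 CPM for WT and 1503, 1523 and 1490 CPM for Utx KO (−0.36, limma adjusted p = 8.25e-06, at most 0.000158). mt-Nd4, mt-Co2, mt-Nd6, mt-Cytb, mt-Nd1, mt-Co1, mt-Nd2 and mt-Atp8 fell by limma, with log2 fold changes from −0.47 to −0.34. Unlike mt-Atp6 and mt-Co3, each of these lost the call in at least 1 alternative. Their highest adjusted p over the alternatives ran from 0.0889 (mt-Atp8) to 0.326 (mt-Co1). mt-Nd5, mt-Nd4l and mt-Nd3 had values of −0.19, −0.21 and −0.12 and did not pass (limma adjusted p of 0.085, 0.339 and 0.565). The count of falls was 3 in place of 10 with the robust limma fit and 7 with DESeq2, and 9 to 11 in the other alternatives. Some of these genes overlap each other in mitochondrial DNA (mt-Atp8 with mt-Atp6, mt-Nd4l with mt-Nd4), so the values are not independent. The gene mt-Nd6 lies on the strand opposite to the rest. As the strand setting is unknown, its reads cannot be told apart from reads of the other strand. With these genes taken out of the library totals, 1 mitoribosomal gene still rose and 2 fell, and the median was 0.048. The difference between the nuclear and the mitochondrial lists was not tested.

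**Figure D5:**
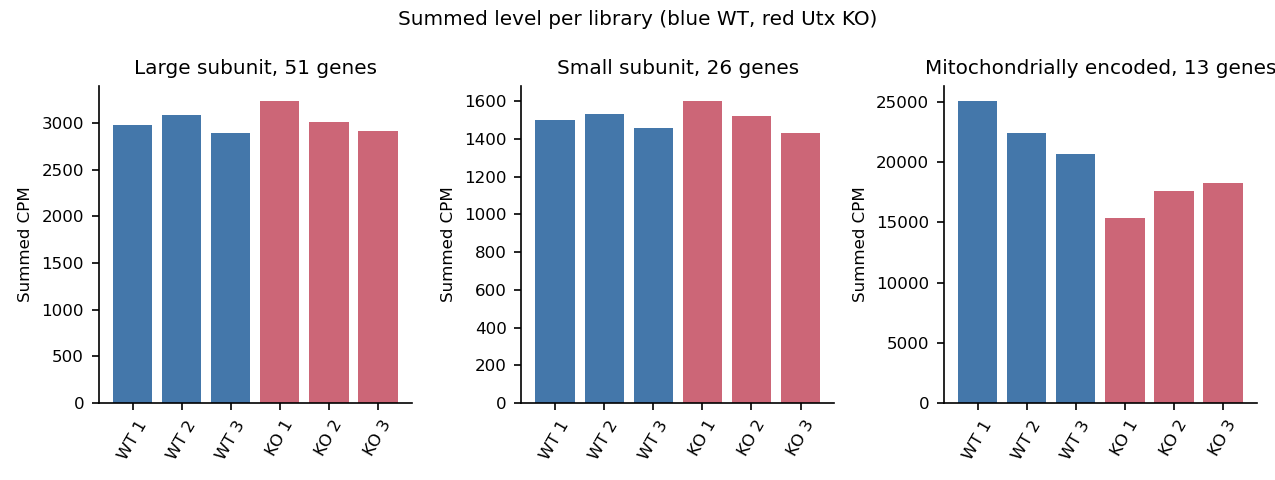
Summed CPM (y axis, from 0) per library for the large subunit, the small subunit and the 13 mitochondrially encoded messenger RNAs, with WT bars in blue and Utx KO bars in red. Groups overlap in both subunit panels, and in the mitochondrial panel the Utx KO sums, 15327 to 18268 CPM, are below the WT sums, 20710 to 25061 CPM.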

How the data were processed

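Per the labels' protocols, libraries were made from 500 ng of RNA with a QuantSeq 3' kit. The authors deposited their values as CPM, a list of Ensembl genes for every library. The submitters' processing notes name GRCm38 and mm10; for the aligner, counter and strand setting nothing was found in the sources used here. Division by the CPM of 1 read gave whole reads for 100% of values above 0 (tolerance 0.001 reads). A count of 0 allows up to 1.19 to 1.85 CPM (3 reads, counting error only).

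Symbols were found for 25600 of 25655 identifiers. Genotypes were compared with limma-trend (3.58.1, in R 4.3.3) on log2(CPM + 1), two-sided, with no covariate, over genes with at least 1 CPM in 3 libraries and Benjamini-Hochberg adjustment at 0.05. Fold changes on this scale understate changes of low genes. Count tests on the recovered reads (edgeR 4.0.16, which called 1106 genes, DESeq2 1.42.0 and limma-voom) were alternatives, as were other pseudocounts, filters and scalings, a robust fit and leaving out each library. The tests were checked on simulated counts with 2-fold changes planted in genes that were not low. Smaller changes, as in the mitoribosomal genes, and changes of low genes were not covered by that check. Subunit, class and place of each protein were assigned from general knowledge of the mitoribosome.

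The genes, lists and tests were chosen with earlier results of these data known. Named genes were Kdm6a, called mitoribosomal genes, the 6 largest and 6 smallest log2 fold changes, the 5 highest and 5 lowest levels, called genes of the related lists and 18 genes with a special place; the rest were named after their values were seen. Positions and overlaps come from GENCODE M21 (GRCm38). Exons are shared with another gene for 8 of the 78 genes on their own strand and for 28 across strands. For 5 (Mrpl53, Mrpl23, Mrpl22, Mrpl42, Mrps10), at least 20% of the 50-nt pieces of the last 300 nt occur in other genes. Promoters come from RefSeq (GRCm38.p6).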

Additional observations from a re-analysis of the deposited data

How the results depend on the processing

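The 17 alternatives changed some calls. With DESeq2, 599 genes were called in place of 1142, and 1 mitoribosomal gene in place of 3 (1 higher, 0 lower). With a pseudocount of 0.1, 1 mitoribosomal gene was called lower in place of 2. Leaving out 1 library at a time gave 754 genes called (without WT replicate 2) to 1042 (without Utx KO replicate 1). It gave 0 mitoribosomal genes called (without Utx KO replicate 2) to 4 (without Utx KO replicate 3), with 0 to 2 higher and 0 to 2 lower. The median log2 fold change of the 78 genes ran from −0.0079 (without Utx KO replicate 1, the only change of sign among these values) to 0.10 (without Utx KO replicate 3), and from 0.048 to 0.063 in the other alternatives. For the 45 named genes, 719 of 765 values kept the direction and the side of the threshold, 28 lost the call, 2 gained it and 16 changed sign, the last all in genes that were not called. The log2 fold change of Mrpl44 was -0.00034 with TMM-scaled CPM and -0.0013 without mitochondrially encoded genes in the totals. The other changes of sign came with 1 library left out, where the values ran from −0.0015 to 0.14 for Mrpl10, from −0.062 to 0.21 for Mrpl11, from −0.19 to 0.19 for Mrpl44, from −0.044 to 0.20 for Mrpl50, from −0.019 to 0.19 for Mrps12, from −0.082 to 0.0023 for Mrps18a, from −0.056 to 0.14 for Mrps18b, from −0.025 to 0.19 for Mrps24 and from −0.10 to 0.12 for Mrps36.

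Same-numbered libraries of the 2 genotypes did not deviate together (r from −0.00963 to 0.00602), and not every library correlated best with its own number, so the numbers were not taken as pairs. With the replicate number as a block, 1065 genes and 2 mitoribosomal genes were called, 1 higher and 1 lower, Mrpl27 being lost (limma adjusted p = 0.0522). Fits without a library have fewer samples; beyond that, the cause of these changes, and of the lower counts of mitochondrially encoded falls given above, was not tested. With 19 reads in the thinnest case and 3 samples per group, the intervals of low genes are wide, and differences inside them are not excluded.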
